A study of Mus musculus with 8 samples.

Results

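C2H2 zinc finger proteins form one of the most populous gene families of mammals, and 217 rows of the brain expression table that carry the name Zfp and exactly 3 digits are described here. They were chosen by that name and by a mean of 5 CPM or more (CPM, the estimated count of a gene per 1000000 counts of its library) over all 8 libraries, out of 268 rows with such a name and 17613 rows in all. The rule therefore used the level of each gene and not the difference between the groups, and the levels below are a description. Just inside the minimum were Zfp709 at 5.03, Zfp963 at 5.17 and Zfp454 at 5.19 CPM, and just outside were Zfp273 at 4.85, Zfp691 at 4.77 and Zfp300 at 4.75 CPM. All 217 passed the filter on low counts. The 217 rows carry 216 different symbols, because Zfp319 names a pair of rows with different identifiers and the same listed interval.

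In a C2H2 zinc finger, pairs of cysteines and histidines hold a zinc ion, and a row of such fingers can read a DNA sequence. Many of these proteins also carry a KRAB domain, which binds the corepressor TRIM28 (KAP1), and TRIM28 brings the histone methyltransferase SETDB1 and other silencing proteins to the site. KRAB zinc finger proteins are best known for silencing transposable elements and for keeping imprinted loci methylated, while others with no KRAB domain serve transcription, RNA metabolism or cell division.

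The series compared brains of C57BL/6 mice labelled wild type (WT, 4 libraries) with brains labelled Uhrf2 knockout (KO, 4 libraries) by sequencing of polyadenylated RNA. Uhrf2 encodes a chromatin protein with affinity for hydroxymethylated DNA, and the series title ties it to local DNA methylation and to seizures. The labels give no age, allele or treatment, and nothing in them says that the libraries come from separate animals, so p-values measure only how far these libraries vary, which may be technical. Library totals ran from 11891349 to 19773921 counts, at which a count of 3 is between 0.152 and 0.252 CPM.

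Uhrf2 itself stood higher in the libraries labelled KO, at 85.5 to 90.7 CPM against 48.0 to 58.8 CPM in those labelled WT (log2 fold change 0.68, SE 0.06, Benjamini-Hochberg adjusted p = 5.45e-06 from the edgeR quasi-likelihood F statistic). Counts per gene do not show whether the reads come from inside a deleted part, so groups are called by their labels and each direction rests on them. Markers of the labelled tissue were present. The 7 neuronal markers had mean levels of 263 to 2531 CPM, and 7 of 7 astrocyte, 7 of 7 oligodendrocyte and 7 of 7 microglial markers were above 0. Of 5 muscle markers looked up as a sign of neighbouring tissue, 2 were in the table, at 0.388 and 5.56 CPM.

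Predicted proteins were available for 214 of the 217 rows, from the coding transcripts of GENCODE M21. A finger was counted where a pair of cysteines 2 to 4 residues apart was followed after 12 residues by a pair of histidines 3 to 5 residues apart. The median was 10 fingers per protein, and the number ran from 0 to 36, with Zfp142 the highest. The 6 proteins with no match to this pattern included Zfp703 and Zfp503, related transcriptional corepressors, and Zfp365, a partner of the scaffold protein DISC1. A match to the KRAB domain was found in 95 of the 214. Those 95 had a median of 12 fingers, and the 119 without a match had a median of 7. A missing match says only that the pattern was not found in these transcripts.

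KRAB members were expressed at lower levels. Their median level was 14.9 CPM, with a highest of 98.2 CPM for Zfp445, and the members without a match had a median of 27.98 CPM and a highest of 375 CPM for Zfp365. The median GC content of the longest coding transcript was 42.5% for KRAB members, 51.1% for the members without a match, and 50.2% for all tested genes with a mean of 5 CPM or more. Among all members, 38 were under 10 CPM, 148 between 10 and 50 CPM, and 6 above 100 CPM.

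Because a long transcript gives more reads than a short one at the same abundance, levels were compared between genes per kilobase of the longest coding transcript. On that scale Zfp365 led, at 88.0 CPM per kb. It was followed by Zfp706, a small protein with 1 finger, at 52.2 CPM per kb, and by Zfp207, which binds the checkpoint protein BUB3 in mitosis, at 51.7 CPM per kb. Next came Zfp664 (36.9 CPM per kb), Zfp523, a relative of the activator Zfp143 (32.8), and Zfp106, an RNA-binding protein tied to motor neuron maintenance (29.4). Zfp740, Zfp414, Zfp692 and Zfp637 stood between 19.5 and 23.2 CPM per kb and complete the 10 highest, none of which had a KRAB match. The highest KRAB member was Zfp445, in place 17 at 15.9 CPM per kb.

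**Figure D1:**
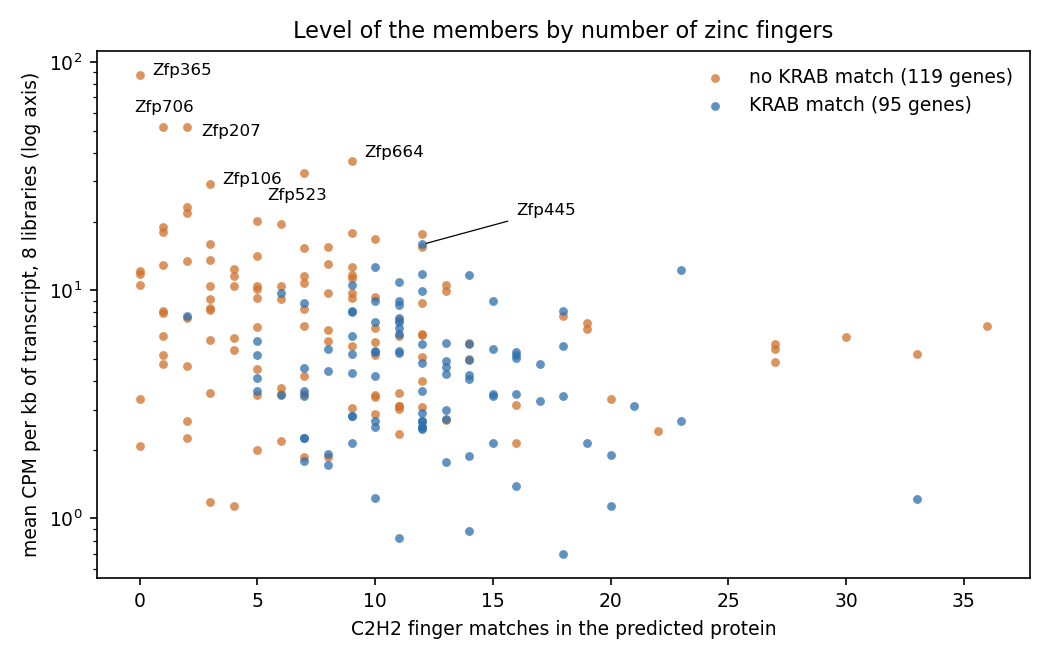
Mean level over 8 libraries (CPM per kb of transcript, log axis) against the number of C2H2 finger matches in the predicted protein, 1 point per member, coloured by KRAB match. The 6 highest members, Zfp365 at 88.0 to Zfp106 at 29.4 CPM per kb, have no KRAB match and 9 fingers or fewer, and Zfp445 is the highest KRAB member.

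Of these highly expressed members, Zfp365, Zfp706 and Zfp106 are given here by library. Zfp365 read 372, 371, 334 and 380 CPM in WT replicates 1 to 4 and 391, 356, 402 and 391 CPM in KO replicates 1 to 4. The groups overlapped, with WT replicate 3 the lowest of all (log2 fold change 0.10, SE 0.05, adjusted p = 0.447). Zfp706 read 241, 223, 219 and 229 CPM in WT and 235, 238, 230 and 229 CPM in KO libraries, also with overlap. Zfp106 read 278, 262, 261 and 274 CPM in WT and 257, 269, 263 and 269.7 CPM in KO libraries (log2 fold change -0.01, SE 0.04), and its sign differed between alternatives. Over all members the median coefficient of variation was 6.73% among the WT and 7.69% among the KO libraries.

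The members were not spread evenly over the genome. Of the 216 placed on GRCm38, 53 (24.5%) were on chromosome 7 and 25 (11.6%) on chromosome 17, where 7.25% and 4.68% of all genes at the same minimum level lie. In all, 135 had another member within 1 Mb, and 12 groups joined at that distance held 5 or more members, 85 together, of which 54 had a KRAB match. The most populous, at chr17:21008903-23564238, held 12 members, 11 of them with a KRAB match, and the next, at chr17:32765496-33631779, held 10 members, 9 of them with one.

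Sequences at the start sites are shown for 4 of the 5 members with the lowest p in the comparison of the groups (Zfp831 had no matching window), because the study is about cytosine methylation, which in mammals falls mainly on CpG pairs. The RefSeq windows run from 250 bases before to 50 bases after a gene's start on GRCm38.p6. The printed start sites lie 2 (Zfp329), 0 (Zfp445), 751 (Zfp740) and 27 bases (Zfp180) from the gene's start in GENCODE. Each CpG is in capitals, on the strand of the gene, 5′ to 3′. Zfp329 at chr7:12818811-12819110 is on the minus strand, Zfp445 at chr9:122865957-122866256 on the minus strand, Zfp740 at chr15:102203750-102204049 on the plus strand and Zfp180 at chr7:24081647-24081946 on the plus strand.
Zfp329: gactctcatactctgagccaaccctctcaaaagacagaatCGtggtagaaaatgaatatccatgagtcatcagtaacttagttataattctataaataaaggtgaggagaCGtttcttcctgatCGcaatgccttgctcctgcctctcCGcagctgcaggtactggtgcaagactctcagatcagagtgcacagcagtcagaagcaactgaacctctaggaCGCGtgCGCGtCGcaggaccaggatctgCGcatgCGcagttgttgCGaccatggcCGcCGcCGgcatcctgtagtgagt
Zfp445: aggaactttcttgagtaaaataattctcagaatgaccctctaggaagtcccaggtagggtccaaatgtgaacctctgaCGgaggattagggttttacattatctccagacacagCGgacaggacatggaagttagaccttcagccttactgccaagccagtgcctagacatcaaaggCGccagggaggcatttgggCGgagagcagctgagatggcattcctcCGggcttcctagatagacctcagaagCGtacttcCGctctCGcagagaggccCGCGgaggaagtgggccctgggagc
Zfp740: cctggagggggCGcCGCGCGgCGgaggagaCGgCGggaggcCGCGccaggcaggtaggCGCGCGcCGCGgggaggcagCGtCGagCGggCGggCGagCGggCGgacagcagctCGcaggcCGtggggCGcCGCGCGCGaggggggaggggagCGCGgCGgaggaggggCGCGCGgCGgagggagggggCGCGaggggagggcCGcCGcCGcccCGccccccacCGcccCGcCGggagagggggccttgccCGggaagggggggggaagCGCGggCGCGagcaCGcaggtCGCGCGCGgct
Zfp180: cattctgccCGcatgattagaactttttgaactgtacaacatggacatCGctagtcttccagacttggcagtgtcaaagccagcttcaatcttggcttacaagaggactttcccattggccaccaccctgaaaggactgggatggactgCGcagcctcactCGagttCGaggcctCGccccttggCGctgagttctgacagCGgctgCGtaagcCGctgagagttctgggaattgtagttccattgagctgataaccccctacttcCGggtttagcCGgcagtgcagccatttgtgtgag

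These windows hold 15 (Zfp329), 10 (Zfp445), 54 (Zfp740) and 12 (Zfp180) CpG pairs, so that Zfp740 stands far above the other three. The motif searched was CG, which reads the same on the other strand. Of 178 members with a matching window, 79.8% held 10 or more, against 85.2% of 9638 genes with a mean of 5 CPM or more. The median was 12 CpG pairs in 85 KRAB members, 19 in 91 members without a match, and 21 in all these genes. No methylation was measured in these libraries.

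Between the groups, no member passed the test. With p adjusted over 15902 tested genes in edgeR and a threshold of 0.05, 0 of 217 members changed, where 1.43% of all tested genes were called (1.14% higher and 0.289% lower). By DESeq2, which called 1.96% of all tested genes, and by limma-voom, which called 1.28%, 0 members passed, and 26 had an unadjusted p under 0.05 in edgeR (11.98%, where 12.6% of all tested genes did). The lowest adjusted p in the edgeR fit was 0.129. With the replicate numbers added to that fit as a block, 1 member passed (Zfp831), where 3.11% of all tested genes were called. The differences were small, with 139 members within 0.1 of 0 on the log2 scale, 8 beyond 0.2, and an interval of 2 SE on either side that lay within 0.5 of 0 for 213 of the 217.

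The signs were uneven. Of 217 members, 154 had a negative and 63 a positive log2 fold change, where 52% of all tested genes were negative. The median was -0.051 (3.48% lower), against -0.001 for all 12481 tested genes with a mean of 5 CPM or more. Nearer the members in level, the 9998 tested genes between 5 and 100 CPM had a median of -0.012. Of those, 54.9% were negative. At an unadjusted p under 0.05, 22 members (10.1%) were lower and 4 (1.84%) higher, where 6.16% and 6.45% of all tested genes were. This split rested in part on single libraries. Members lower and higher were 12 and 7 without KO replicate 1 (all genes 4.96% and 5.93%) and 14 and 5 without WT replicate 3 (4.37% and 5.61%). They were 15 and 5 without WT replicate 1 (5.27% and 6.73%) and 15 and 5 without WT replicate 4 (6.04% and 6.14%). Without WT replicate 2 they were 22 and 5 (5.29% and 6.28%), and without KO replicate 2 22 and 6 (6.80% and 7.87%). Without KO replicate 3 they were 18 and 4 (4.45% and 5.92%), and without KO replicate 4 17 and 2 (5.53% and 5.67%). They were 10 and 5 without both libraries numbered 1 (4.49% and 5.61%), and 15 and 7 with GC content and length trends removed (5.77% and 8.35%). In 14 members (6.45%) all KO libraries lay below all WT libraries, and in 0 they lay above. Of all tested genes, 4.14% and 3.42% did so, 7.57% in all. Shares by GC content are given below with the KRAB members. Leaving out 1 library at a time gave 143 to 165 negative members and medians from -0.064 to -0.036, and without both libraries numbered 1 there were 140 at a median of -0.030. With 1 library left out, separation is more common for all genes, and 5.61% to 8.48% of them were lower and 4.41% to 5.48% higher without overlap. Of members 19 to 32 (8.76% to 14.7%) were then lower and 0 to 4 (up to 1.84%) higher. Lower members were 22 (10.1%, all genes 6.88%) without WT replicate 1 and 27 (12.4%, 6.49%) without WT replicate 2. They were 19 (8.76%, 5.61%) without WT replicate 3 and 20 (9.22%, 6.97%) without WT replicate 4. They were 19 (8.76%, 6.20%) with KO replicate 1 left out and 32 (14.7%, 8.48%) with KO replicate 2 left out. They were 24 (11.1%, 5.92%) with KO replicate 3 left out and 20 (9.22%, 6.03%) with KO replicate 4 left out.

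**Figure D2:**
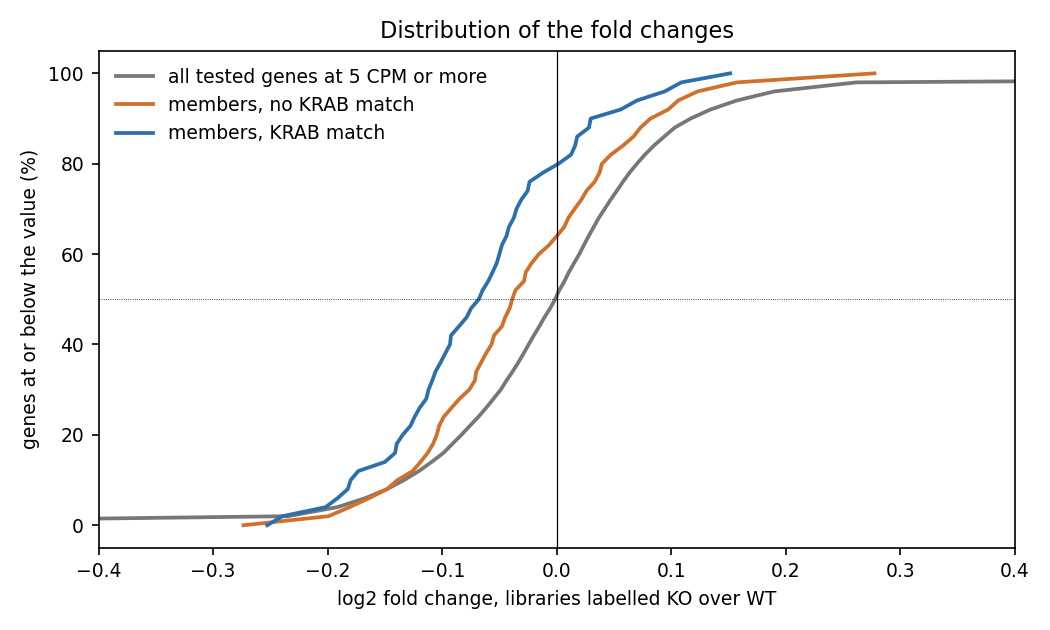
Cumulative share of genes (%) against the log2 fold change, KO over WT as labelled, for KRAB members, for the members without a match and for all tested genes with a mean of 5 CPM or more. Both member curves lie to the left of the curve of all genes over most of the range, with medians of -0.068, -0.039 and -0.001.

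KRAB members leaned lower. Of 95, 75 were negative, with a median of -0.068, and of the 119 without a match 76 were negative, with a median of -0.039. GC content moved with these values. Among all tested genes with a mean of 5 CPM or more, the 2855 with a GC content under 45% had a median of -0.028. Of these, 7.81% were lower and 0.806% higher without overlap. The 9521 others had a median of 0.006, with 3.45% lower and 4.67% higher without overlap. Among members, the 94 under 45% had a median of -0.068, with 8 (8.51%) lower and 0 higher without overlap. The 122 others had a median of -0.041, with 6 (4.92%) lower and 0 higher without overlap. With GC content and length trends of each library removed, the medians were -0.038 for KRAB members, -0.036 for the members without a match and -0.036 for all members, with 143 of 216 negative. In that setting all tested genes with a mean of 5 CPM or more had a median of 0.003, with 48.6% negative. Zinc finger genes outside the rule are given for comparison, with no test between the groups of genes. The 51 genes named Zfp with fewer digits or a letter had a median of -0.060, with 1 passing the test, Zfp46 (45.7 ± 4.54 CPM in WT libraries and 36.0 ± 1.91 CPM in those labelled KO, SD, n = 4, adjusted p = 0.0131 by edgeR). Zfp46 no longer passed in edgeR without KO replicate 3 (adjusted p = 0.0567), KO replicate 4 (0.0520) or both libraries numbered 1 (0.0599). With GC content and length trends removed, the median of these 51 genes was -0.026. The 83 genes of the Zbtb, Zscan, Zkscan, Zfhx, Zic, Klf, Zmym and Zmynd families had a median of -0.047, with 1 passing, Zbtb1, which rose.

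By library, the members took 0.674% to 0.684% of all counts in WT and 0.639% to 0.668% in KO libraries. The groups did not overlap in this sum, with KO replicate 1 the lowest. KRAB members took 0.179% to 0.185% in WT and 0.166% to 0.176% in KO libraries, also with no overlap. Members without a match took 0.488% to 0.495% and 0.471% to 0.490%, with overlap. The 51 genes named Zfp with fewer digits or a letter took 0.132% to 0.138% and 0.126% to 0.130%, with no overlap either. The median deviation of the members from their mean over 8 libraries was 0.028, 0.020, 0.028 and 0.022 in WT replicates 1 to 4 and -0.056, -0.001, 0.009 and -0.028 in KO replicates 1 to 4, on the log2 scale. KO replicates 1 and 4 were thus the low ones, and KO replicates 2 and 3 were near the mean. For KRAB members the deviations were 0.074, 0.039, 0.006 and 0.018 in WT and -0.074, -0.008, 0.015 and -0.055 in KO libraries, so that WT replicate 1 and KO replicate 1 stood at the ends and KO replicate 3 lay above WT replicate 3. For all tested genes at 5 CPM or more the deviations lay between -0.001 and 0.006.

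**Figure D3:**
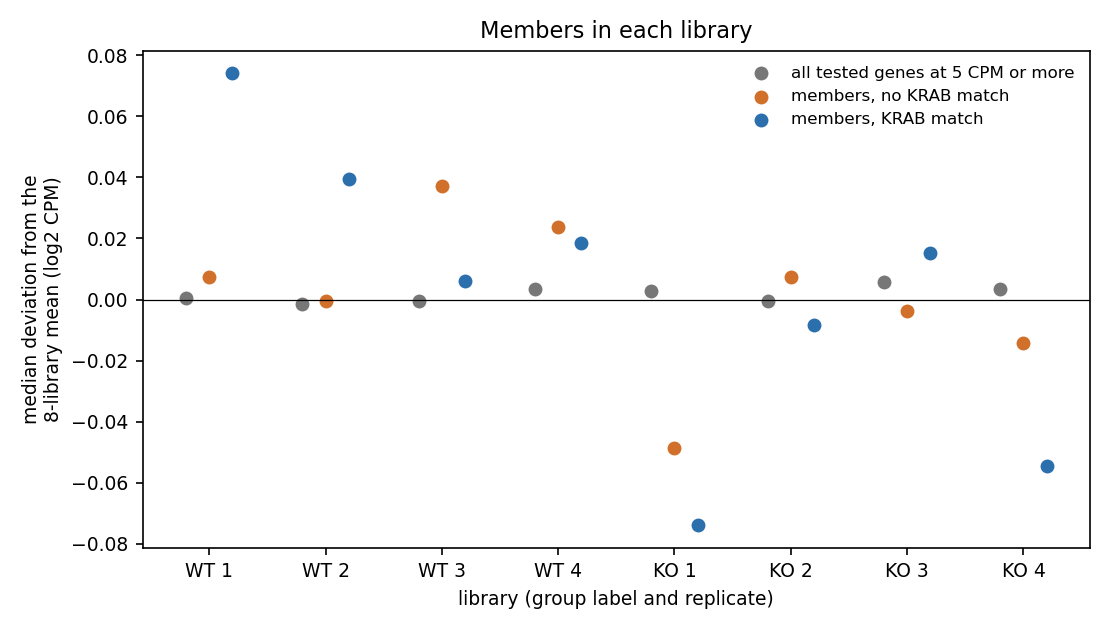
Median deviation from the mean over 8 libraries (log2 CPM) in each library, for KRAB members, for the members without a match and for all tested genes with a mean of 5 CPM or more. KRAB members range from -0.074 in KO replicate 1 to 0.074 in WT replicate 1, and all genes stay within 0.006 of 0.

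Among markers of cell types 3 striatal genes passed the test (Ppp1r1b, Drd1a and Pdyn, all higher in KO libraries), and 0 of each other list did. Neuronal lists were mostly positive, with 7 of 7 general neuronal, 6 of 6 GABAergic, 4 of 5 excitatory and 8 of 8 striatal markers. Several other lists leaned negative, with 6 of 7 astrocyte, 6 of 7 oligodendrocyte, 6 of 6 endothelial and mural and 4 of 5 meningeal markers. Choroid plexus and ependymal markers were 2 positive and 4 negative, and microglial markers were split, 3 positive and 4 negative. Oligodendrocyte precursor markers were 3 positive and 2 negative, and blood markers 3 positive and 1 negative. The 8 cerebellar markers summed to 1304 to 1651 CPM in WT libraries and 1135 to 1454 CPM in those labelled KO, and 7 of 8 had a negative log2 fold change, at a median of -0.13, and these sums overlapped. The 6 endothelial and mural markers summed to 241 to 264 CPM in WT libraries and 223 to 237 CPM in those labelled KO, with no overlap. Astrocyte markers summed to 4362.2 to 4474 CPM in WT libraries and 4041 to 4361.6 CPM in those labelled KO, so that the nearest libraries almost met, and striatal markers to 635 to 721 CPM and 717 to 766 CPM. No marker of these lists was at 0. In whole tissue, fewer cells of a type and less RNA per cell cannot be told apart. The part of cell types, or of GC content, in the lower levels of the members was not tested.

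The 10 members with the lowest p are given by library. Zfp831 (chr2:174643534-174710832, 2 fingers) had the lowest, and read 20.7, 18.5, 19.3 and 21.9 CPM in WT replicates 1 to 4 and 22.2, 21.4, 25.3 and 27.0 CPM in KO replicates 1 to 4. KO replicates 3 and 4 were high, and KO replicate 2 lay below WT replicate 4. Its difference of 0.28 (log2, SE 0.08, edgeR adjusted p = 0.129) was the largest positive difference among the members. Without KO replicate 2 it passed, at 0.33 and an adjusted p of 0.0414, where 2.03% of all genes were called. It also passed with the replicate block, where 3.11% were called, and with the block and the GC content and length trends removed, where 3.57% were.

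Zfp329 (chr7:12804977-12818858, 12 fingers), the gene of the start site with 15 CpG pairs above, read 44.1, 46.3, 46.1 and 45.6 CPM in WT and 39.4, 40.7, 39.0 and 41.6 CPM in KO libraries. Every KO library was below every WT library (log2 fold change -0.17, SE 0.05, adjusted p = 0.131 by edgeR). Zfp740 (chr15:102203249-102215606, 2 fingers) read 104, 104, 105 and 101 CPM in WT and 88.3, 99.5, 93.6 and 91.1 CPM in KO libraries. The groups were apart by less than 2 CPM at the nearest libraries, WT replicate 4 and KO replicate 2 (log2 fold change -0.14, SE 0.04, adjusted p = 0.149). Zfp180 (chr7:24081924-24107713, 12 fingers) read 55.6, 52.7, 58.3 and 61.7 CPM in WT and 59.4, 64.0, 66.8 and 63.1 CPM in KO libraries. KO replicate 1 fell within the WT range (log2 fold change 0.17, SE 0.06, adjusted p = 0.181).

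Among KRAB proteins tied to imprinting or to retroelements, 4 of the 7 genes looked up are members, and 4 of 4 were negative, with 0 past the test. Zfp445, which with ZFP57 keeps imprinted loci methylated, lies at chr9:122844529-122866006 and read 99.6, 102, 109 and 104 CPM in WT and 88.5, 92.1, 91.5 and 98.4 CPM in KO libraries. The groups did not overlap, although KO replicate 4 came close to WT replicate 1 (log2 fold change -0.15, SE 0.05, adjusted p = 0.141 by edgeR). Zfp932, a repressor of endogenous retroviruses, read 26.0, 24.3, 24.6 and 22.2 CPM in WT and 20.2, 22.3, 21.7 and 19.6 CPM in KO libraries, with overlap only between WT replicate 4 and KO replicate 2 (log2 fold change -0.19, SE 0.07, adjusted p = 0.211). Zfp568, which silences a placental promoter of Igf2, read 5.63, 7.16, 6.17 and 5.70 CPM in WT and 4.35, 5.77, 6.71 and 3.56 CPM in KO libraries, a wide spread at this level (log2 fold change -0.24, SE 0.16). Zfp809, which silences proviruses of murine leukaemia virus, stood at 6.46 ± 0.43 and 5.92 ± 0.11 CPM (SD, n = 4).

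The other KRAB members among the 10 were Zfp945 and Zfp810. Zfp945, in the populous group on chromosome 17, read 26.1, 25.3, 24.2 and 22.3 CPM in WT and 21.2, 21.0, 21.9 and 21.0 CPM in KO libraries. The groups did not overlap, and the WT libraries were the more spread of the pair (log2 fold change -0.18, SE 0.07, adjusted p = 0.224 by edgeR). Zfp810 read 21.9, 19.3, 18.9 and 16.0 CPM in WT and 17.7, 16.7, 13.4 and 15.4 CPM in KO libraries, with overlap (log2 fold change -0.25, SE 0.10). In the group of 12 that holds Zfp945, 10 members were negative, with a median of -0.091, and in the group of 10 on the same chromosome 7 were, with a median of -0.066. In the 5 members at chr9:19622102-20605409, among them Zfp266 and Zfp426, 5 were negative, at a median of -0.076. In the 6 members at chr7:6131491-7209998, 2 were negative, at a median of 0.042. That was the only positive median among the 12 groups of 5 or more members, and the lowest was -0.116 (chr7:4915217-5053723, 4 of 5 negative). The others include chr8:69209038-69791178 (5 of 5 negative, median -0.108) and chr7:29816114-30169750 (4 of 7 negative, median -0.013). Neighbouring KRAB genes can be near copies of one another, and how reads that match several of them were counted is not given in the sources used here. All 8 values were whole within 0.001 in 90 of the 95 KRAB members and in 197 of all 217 members. Because the counting program is not known, whole values do not show that reads were matched to a single gene.

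**Figure D4:**
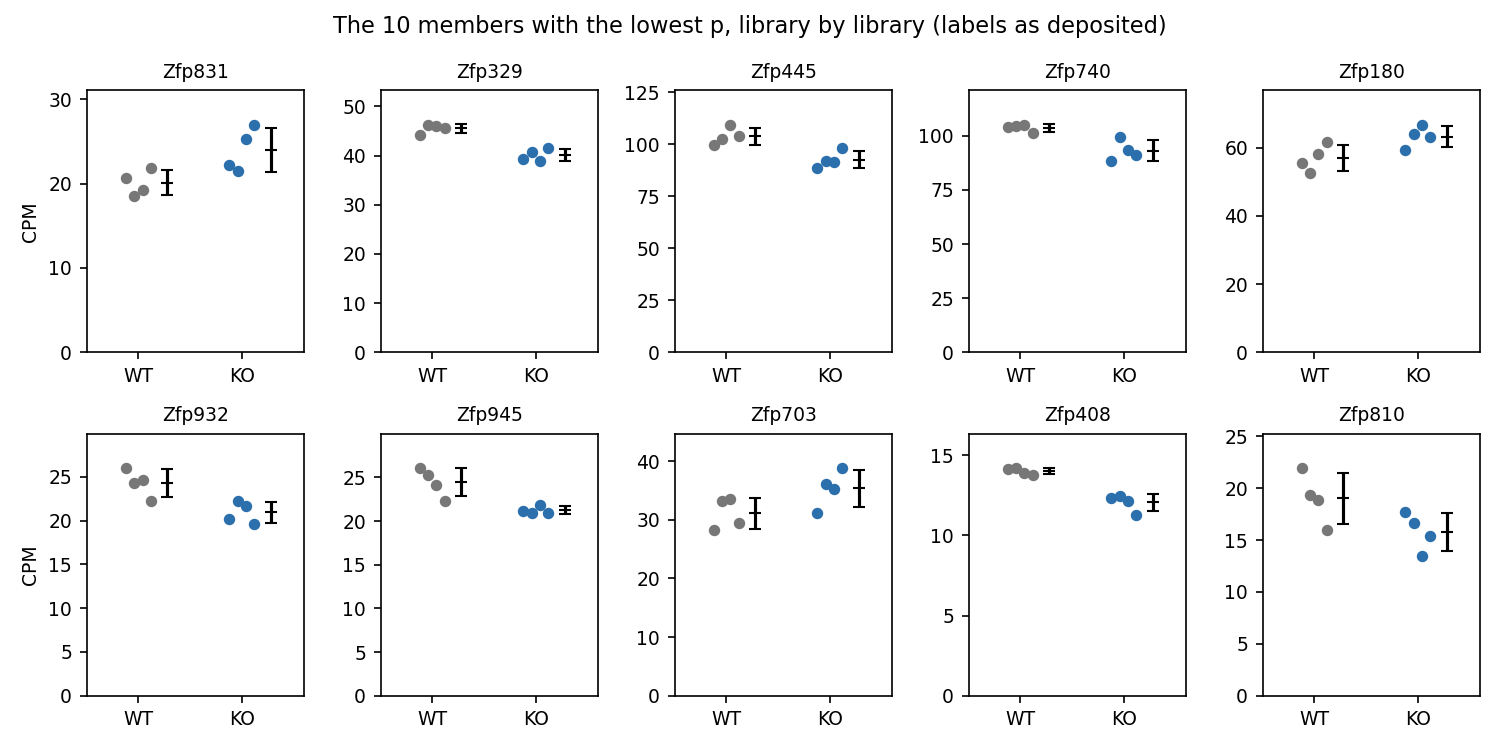
Level (CPM) in each of the 4 WT and 4 KO libraries, with the mean and SD beside the points, for the 10 members with the lowest p. Zfp329, Zfp445, Zfp740, Zfp945 and Zfp408 have all KO points below all WT points, and Zfp831, Zfp180 and Zfp703 have higher KO means with overlap.

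Of members with roles in the development of neurons, 0 of 12 passed, 7 were positive and 5 negative, at a median of 0.033. Zfp703 read 28.2, 33.2, 33.5 and 29.5 CPM in WT and 31.2, 36.1, 35.2 and 38.8 CPM in KO libraries. KO replicate 1 lay among the WT libraries (log2 fold change 0.19, SE 0.07, adjusted p = 0.237 by edgeR). Zfp335, which is needed for neural progenitors and whose loss causes microcephaly, read 48.4, 49.5, 55.2 and 53.1 CPM in WT and 40.7, 50.2, 40.3 and 49.9 CPM in KO libraries. The KO libraries fell into a low pair, replicates 1 and 3, and a pair within the WT range (log2 fold change -0.18, SE 0.07), and 23.3% of its exon bases are shared with Pcif1 on the opposite strand. Zfp704 stood at 84.5 ± 3.01 and 90.0 ± 3.20 CPM (SD, n = 4). Zfp503, a striatal progenitor factor, stood at 8.90 ± 0.80 and 8.58 ± 1.41 CPM, and the differences on the log2 scale were -0.10 for Zfp521 (SE 0.06), 0.03 for Zfp423 (SE 0.07) and 0.03 for Zfp462 (SE 0.06).

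Of partners of chromatin complexes, 0 of 15 passed, 6 were positive and 9 negative, at a median of -0.014. Zfp618, known as a partner of UHRF2 at modified cytosine and picked for that after its values were seen, read 8.66, 10.5, 11.6 and 10.6 CPM in WT and 8.78, 9.43, 9.18 and 11.02 CPM in KO libraries. The ranges overlapped almost in full (log2 fold change -0.10, SE 0.10, adjusted p = 0.749 by edgeR), at a level where a difference of 2 SE or less is not resolved. Zfp451, a SUMO ligase, stood at 66.2 ± 2.92 and 69.6 ± 3.10 CPM (SD, n = 4) and Zfp687, which joins Zfp592 and the reader ZMYND8 in a complex, at 55.9 ± 3.78 and 51.8 ± 3.96 CPM. Zfp827, which recruits the NuRD complex, stood at 46.8 ± 1.71 and 48.4 ± 1.45 CPM.

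Of members that act on RNA, ribosomes or mitosis, 0 of 10 passed, 3 were positive and 7 negative, at a median of -0.080. Zfp318, needed for IgD expression in B cells, read 62.4, 64.5, 65.2 and 61.0 CPM in WT and 58.4, 59.2, 55.7 and 58.3 CPM in KO libraries, with no overlap (log2 fold change -0.11, SE 0.05, adjusted p = 0.291 by edgeR). Zfp207 read 167, 147, 155 and 156 CPM in WT and 143, 140.3, 141 and 148 CPM in KO libraries. Its groups met at WT replicate 2 and KO replicate 4 (log2 fold change -0.11, SE 0.05). Zfp598, the ubiquitin ligase that marks collided ribosomes, read 62.3, 62.0, 65.8 and 64.1 CPM in WT and 48.8, 63.8, 54.4 and 59.6 CPM in KO libraries. KO replicate 1 was lowest and KO replicate 2 within the WT range (log2 fold change -0.15, SE 0.06). Of the 9 members listed for signalling and stress 0 passed, 4 were positive and 5 negative, and Zfp263 stood at 31.1 ± 2.10 and 28.6 ± 1.11 CPM.

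Zfp408, tied in people to inherited retinal disease, had narrow groups, at 14.1, 14.2, 13.9 and 13.8 CPM in WT and 12.3, 12.4, 12.2 and 11.3 CPM in KO libraries. The groups did not overlap (log2 fold change -0.20, SE 0.08, adjusted p = 0.259 by edgeR). The largest negative log2 fold change, -0.35 (SE 0.14), belonged to the row ENSMUSG00000074140, which the table also names Zfp319 and which was not found in GENCODE M21. It read 6.05, 6.98, 6.93 and 8.54 CPM in WT and 4.58, 5.77, 6.77 and 4.88 CPM in KO libraries, with overlap. The row ENSMUSG00000046556 with the same symbol stood at 22.9 ± 1.16 and 21.6 ± 1.39 CPM (SD, n = 4). In Zfp784 94.8% of the exon bases are shared with Zfp865 on the opposite strand, and 19 members share over 10% with another gene, so their reads may not be separable.

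The machinery that KRAB proteins recruit was looked up as a list of 33 genes, of which 31 were tested, 0 passed, 12 were positive and 19 negative, at a median of -0.017. Trim28 stood at 140.6 ± 6.05 CPM in WT libraries and 139.7 ± 5.17 CPM in those labelled KO (SD, n = 4), and Setdb1 at 65.4 ± 3.30 and 61.0 ± 4.10 CPM. Rbbp7, a histone-binding subunit of several complexes, had the lowest p, at 116 ± 2.69 and 127 ± 1.83 CPM (adjusted p = 0.0903 by edgeR).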

How the data were processed

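The authors deposited 1 table of estimated counts per gene and library, not scaled. Of the values, 91.5% were whole within 0.001. TopHat2 2.0.9, mm10, GRCm38 and edgeR are named in the submitters' processing notes. Which program counted the reads, and whether by strand, is not given in the sources used here. Counts were rounded, filtered with filterByExpr (15902 genes), scaled by TMM and compared, KO over WT, by the robust quasi-likelihood test of edgeR 4.0.16 (R 4.3.3), with group as the only term; SE came from the coefficient and F. CPM use library totals. Positions, lengths and GC content came from GENCODE M21 (GRCm38), where 216 of 217 member identifiers were found, and promoters from RefSeq (GRCm38.p6). Fingers and KRAB matches came from translated GENCODE transcripts, in place of the RefSeq proteins first planned. The test was also run on simulated counts with the same dispersion for every gene. The changes put in were larger than nearly all differences of the members, so that run does not show what the test finds at their size. No pair of libraries within a group agreed within sampling noise (chi-square per degree of freedom 2.44 to 5.02). Alternatives were other scalings and filters, DESeq2 1.42.0, limma-voom (limma 3.58.1), GC content and length trends removed, the replicate block, other membership rules and leaving out each library. Named members are those with the 10 lowest p, the 10 highest levels per kb, the extremes, those next to the minimum and the 3 with the lowest p in each role list; others were named after their values were seen. Members and lists were chosen with earlier results of these data known.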

Additional observations from a re-analysis of the deposited data

Results flagged for a closer look

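In groups of 4 libraries, a value was singled out where its gap to the nearest other exceeded the 95% critical share of the group's range (Dixon), which chance does in about 1 of 20 groups. This met 2 of 74 groups tested. Zfp963 stood at 3.76 CPM in KO replicate 1 and at 5.20 to 5.35 CPM in the other KO libraries. Uhrf2 stood at 48.0 CPM in WT replicate 2 and at 57.9 to 58.8 CPM in the other WT libraries.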

How the results depend on the processing

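The 32 named members kept their direction and side of the threshold in 560 of 574 values under alternatives. Zfp831 passed at an adjusted p of 0.0262 with the replicate block. Zfp106 turned positive with GC content and length trends removed (0.012, also with the block, 0.012), without WT replicate 1 (0.017), WT replicate 4 (0.006) or KO replicate 1 (0.006), and without both libraries numbered 1 (0.027), Zfp454 without WT replicate 3 (0.0005) or KO replicate 4 (0.029), and Zfp637 without KO replicate 4 (0.028). Leaving out 1 library, Zfp106 ranged from -0.019 to 0.017, Zfp454 from -0.17 to 0.029 and Zfp637 from -0.083 to 0.028. With the replicate block 495 genes changed, against 228 without it, and 1 member rose. With the block and GC content and length trends removed 559 genes changed, 2 members rose (Zfp831 and Zfp180) and 1 fell (Zfp740). Same-numbered libraries correlated at 0.21, 0.08, 0.02 and 0.07 in their deviations, so the numbers were not taken to pair them; WT replicate 3 correlated best with KO replicate 2 (0.11). Leaving out 1 library gave 110 to 324 changed genes, 0 to 1 higher members and 0 lower, 19 to 32 members lower without overlap (8.76% to 14.7%, all genes 5.61% to 8.48%) and 0 to 4 higher (up to 1.84%, all genes 4.41% to 5.48%). The counts without overlap and the counts of negative members under alternatives were added after seeing the data. Without both libraries numbered 1, chosen after seeing the data, the members' median was -0.030. With all Zfp names at the same minimum, 1 gene changed, Zfp46. The members' adjusted p was lowest at 0.0224 and up to 0.268 across the fits, and members with an unadjusted p under 0.05 were from 15 (6.91%, all genes 10.1%), without both libraries numbered 1, to 32 (14.7%, all genes 16.0%), with the replicate block. Depth limits the members near 5 CPM, where SE reached 0.16.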
